A study of Mus musculus with 12 samples.

Results

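The genes described here encode 9 matricellular and adhesive glycoproteins of the extracellular matrix. They are the tenascins *Tnc* and *Tnn*, fibronectin (*Fn1*), the thrombospondins *Thbs1*, *Thbs4* and *Comp*, chondroadherin (*Chad*), osteopontin (*Spp1*) and bone sialoprotein (*Ibsp*). They were chosen by gene symbol, and all 9 were among the 770 genes of the mouse panel. RNA was quantified with the nCounter mouse PanCancer pathways panel, which counts bar-coded probes on RNA molecules without amplification, in 12 samples of 3 groups.

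The 5 *RBS* lesions came from *Rax-creERT2::Ctnnb1(ex3)Fl/+SmoM2Fl/+* embryos at E18.5 whose dams had received tamoxifen at E8.5. In these mice Cre is driven by the *Rax* promoter in retinal precursor cells, where it stabilizes beta-catenin and switches on an active form of Smoothened. The 4 control eyes came from *Ctnnb1(ex3)Fl/+SmoM2Fl/+* embryos of the same age, which carried both floxed alleles but no Cre. The 3 Shh-MBs were medulloblastomas of the hindbrain, taken from *hGFAP-cre::SmoM2Fl/+* mice at an age of 14 days, in which Cre acts in neural precursors under the human GFAP promoter. Genotype, age and tissue all set them apart from the eyes. Whether the dams of the control embryos received tamoxifen is not given for these samples. Each eye came from a different mouse and was labelled as tissue of the orbit.

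Matricellular proteins are secreted into the matrix, where they tune how cells attach and respond to growth factors more than they bear load. Fibronectin and osteopontin display an RGD sequence that integrins recognize, tenascins weaken the attachment of cells to fibronectin, and thrombospondins bind collagens, CD47 and latent TGF-beta. In the developing head, osteopontin and bone sialoprotein are known from forming bone, *Comp* and *Chad* from cartilage, and *Thbs4* from tendon and muscle attachments.

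The upstream sequences of 5 of the genes are shown because these genes either differed between *RBS* lesions and control eyes or, for *Ibsp*, varied most among single eyes. They are the 250 bases before a RefSeq start in GRCm38.p6, read 5′ to 3′ on the strand of the gene, with matches to the searched motifs in capitals. They lie at chr4:64047016-64047265 on the minus strand for *Tnc*, chr5:104434861-104435110 on the plus strand for *Spp1*, chr5:104299037-104299286 on the plus strand for *Ibsp*, chr1:160153576-160153825 on the minus strand for *Tnn* and chr13:92794819-92795068 on the minus strand for *Thbs4*.
Tnc: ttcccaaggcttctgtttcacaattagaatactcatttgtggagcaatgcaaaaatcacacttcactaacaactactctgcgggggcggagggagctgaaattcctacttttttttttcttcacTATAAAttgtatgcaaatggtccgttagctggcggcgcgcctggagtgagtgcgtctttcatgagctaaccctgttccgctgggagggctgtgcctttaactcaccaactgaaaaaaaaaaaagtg
Spp1: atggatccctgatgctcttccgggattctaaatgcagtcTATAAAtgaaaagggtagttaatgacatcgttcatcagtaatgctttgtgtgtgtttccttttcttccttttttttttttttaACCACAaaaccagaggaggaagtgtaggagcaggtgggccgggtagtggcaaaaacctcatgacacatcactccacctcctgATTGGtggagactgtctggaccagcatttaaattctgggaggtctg
Ibsp: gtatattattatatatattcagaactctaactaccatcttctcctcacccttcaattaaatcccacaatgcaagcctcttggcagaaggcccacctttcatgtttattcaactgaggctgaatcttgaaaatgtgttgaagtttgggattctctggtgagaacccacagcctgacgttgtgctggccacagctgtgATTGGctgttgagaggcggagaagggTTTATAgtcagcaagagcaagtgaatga
Tnn: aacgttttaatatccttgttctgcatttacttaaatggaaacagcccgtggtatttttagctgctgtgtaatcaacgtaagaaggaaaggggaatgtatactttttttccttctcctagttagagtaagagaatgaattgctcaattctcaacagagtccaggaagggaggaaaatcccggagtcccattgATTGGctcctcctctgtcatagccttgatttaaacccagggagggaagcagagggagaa
Thbs4: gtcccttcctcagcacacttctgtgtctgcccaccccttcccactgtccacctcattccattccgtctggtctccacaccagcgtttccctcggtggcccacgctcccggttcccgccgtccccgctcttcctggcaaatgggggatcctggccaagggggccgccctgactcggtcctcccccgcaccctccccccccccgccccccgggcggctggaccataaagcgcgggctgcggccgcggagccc
The window of *Tnn* does not begin at the annotated start of that gene. Motifs searched on both strands were TATAAA (the TATA box), CCAAT (the CCAAT box), ACCACA (Runx), CTTTGAT and CTTTGAA (Tcf/Lef), GACCACCCA (Gli) and TGANTCA (AP-1). *Tnc* held TATAAA 126 to 121 bases before the start. *Spp1* held TATAAA at 211 to 206, ACCACA at 128 to 123 and CCAAT on the reverse strand at 46 to 42 bases before the start. *Ibsp* held TATAAA on the reverse strand at 28 to 23 and CCAAT on the reverse strand at 54 to 50 bases before the start. In the window of *Tnn*, CCAAT lay on the reverse strand at 59 to 55. *Tnc* and *Spp1* each have another RefSeq window, not shown, that does not begin at the annotated start of the gene. In that of *Tnc*, TATAAA lay at 205 to 200, and that of *Spp1* held none of the searched motifs. The window of *Thbs4*, with 70.8% G and C against a median of 52.4% over all windows, held none of the searched motifs. Among 32851 RefSeq windows of the same length, 12.4% held TATAAA, 33.8% CCAAT, 14.0% ACCACA, 3.21% CTTTGAT, 4.46% CTTTGAA, 0.225% GACCACCCA and 6.75% TGANTCA. The Tcf/Lef, Gli and AP-1 letters were in none of the 5 windows shown, and a match or its absence is a description of the letters only.

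The values are a normalized signal on a linear scale from which a background had been subtracted, and 1 count was worth 0.81 to 1.64 units. Genes with no count above background share a floor of 1 to 1.64 units in each sample, where 52 to 123 of the 770 genes lay. The total signal corresponded to 335392 to 637795 counts in *RBS* lesions, 590200 to 716684 in control eyes and 541092 to 707210 in Shh-MBs. Differences are given on the log2(signal + 1) scale as the first group minus the second, which understates the change of genes near the floor. They were tested with limma, adjusted over all 770 genes by Benjamini-Hochberg, and a gene with an adjusted p below 0.05 is referred to as called. In these bulk samples, fewer cells of a type and less RNA per cell cannot be told apart. Probes differ in efficiency, so signals of different genes are not compared as levels.

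Between *RBS* lesions and control eyes, 5 of the 9 genes were called. *Tnc* was 2.54-fold and *Spp1* 2.52-fold higher in *RBS* lesions. *Thbs4*, *Tnn* and *Thbs1* were lower, by 6.12-fold, 4.89-fold and 1.94-fold. *Fn1*, *Ibsp*, *Comp* and *Chad* were not called. Of all 770 genes, 51.2% were called in this comparison, 33% as higher and 18.2% as lower in *RBS* lesions, so the share of the 9 genes called was near that of the panel. The groups did not overlap for any of the 5 genes called, as was the case for 43.4% of all genes. The median difference was -0.08 over the 9 genes and 0.17 over all genes. These 5 genes were called in the same directions when samples were median centred, quantile normalized or scaled to their total after removal of the 3 top genes.

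**Figure D1:**
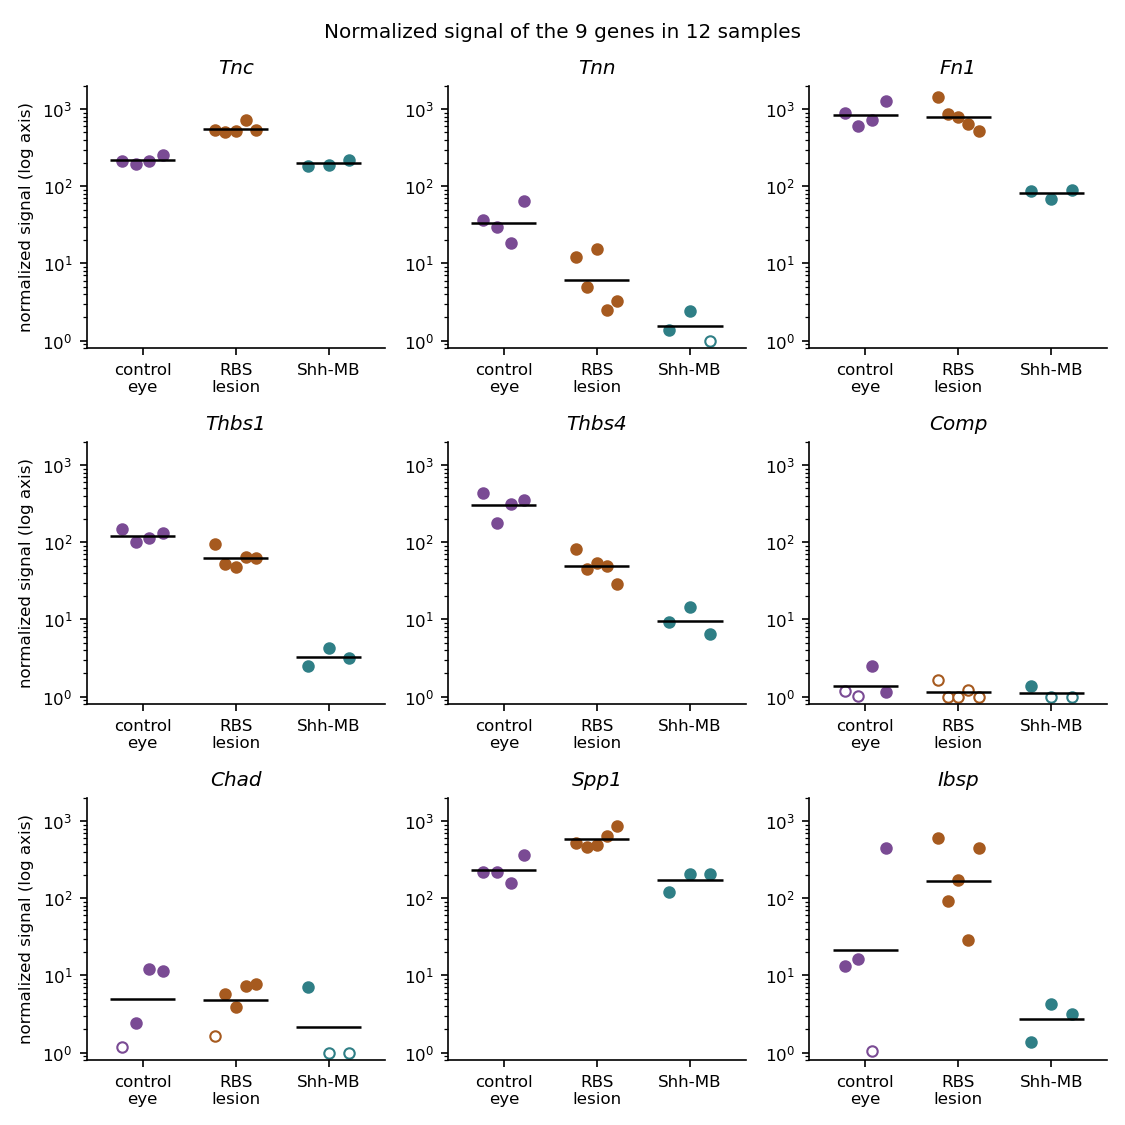
Normalized signal of the 9 genes (log axis) in each of the 4 control eyes, 5 *RBS* lesions and 3 Shh-MBs, with open circles for values at the floor of a sample and lines for the mean of the log2 values. *Tnc* and *Spp1* were highest in *RBS* lesions, *Tnn*, *Thbs1* and *Thbs4* stepped down from control eyes to *RBS* lesions to Shh-MBs, and *Ibsp* was spread widely over the eyes.

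The tenascins went in opposite directions. *Tnc* encodes tenascin C, a protein of embryonic matrix, wounds and tumor stroma. Its signal was 215, 197, 216 and 254 in the control eyes. In the *RBS* lesions it was 532, 502, 527, 726 and 531, and in the Shh-MBs 186, 191 and 222. Every *RBS* lesion lay above every other sample, while control eyes and Shh-MBs overlapped. The difference between *RBS* lesions and control eyes was 1.34 (SE 0.13, 95% confidence interval 1.05 to 1.64, adjusted p = 4.91e-05). Against Shh-MBs the difference was 1.48 (SE 0.15, 1.15 to 1.82, adjusted p = 5.52e-05), and it was smaller but called with median centring (0.64) and quantile normalization (0.96). Between Shh-MBs and control eyes the difference was not called (-0.14, -0.44 to 0.16, adjusted p = 0.423). Its sign turned under the 3 other scalings of the samples, and with median centring it was called as higher in Shh-MBs (0.52, adjusted p = 0.0273).

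*Tnn* encodes tenascin N, also called tenascin W, which is known from the surface of forming bone and from tumor stroma. Its signal was 36.9, 29.8, 18.4 and 64.7 in the control eyes. In the *RBS* lesions it was 11.95, 4.97, 15.4, 2.46 and 3.23. The highest *RBS* lesion lay just below the lowest control eye, and control eye 4 was the highest sample. The difference was -2.29 (SE 0.53, -3.49 to -1.09, adjusted p = 0.00592). In the Shh-MBs the signal was 1.39, 2.41 and 1, which is at or close to the floor. Several of the *RBS* values rest on few counts as well, and the call against control eyes was lost when values under 20 were set to 20 (-0.79, adjusted p = 0.0654).

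Fibronectin is assembled by cells into fibrils and is a main partner of integrins in embryonic matrix. The signal of *Fn1* was 900.5, 615, 730.1 and 1267 in the control eyes and 1427, 872, 788, 639 and 520.0 in the *RBS* lesions. Both groups covered much the same range, and the highest of the 12 samples was *RBS* lesion 1. The difference was -0.08 (SE 0.31, -0.78 to 0.62, adjusted p = 0.843), and its sign turned without *RBS* lesion 5 (0.073) or control eye 4 (0.11). In the Shh-MBs *Fn1* was 86.5, 68.9 and 88.8, far below every eye. The difference of *RBS* lesions from Shh-MBs was 3.29 (SE 0.31, 2.58 to 3.99, adjusted p = 4.29e-05).

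Both measurable thrombospondins were lower in *RBS* lesions, compared with control eyes. *Thbs1* encodes thrombospondin 1, an inhibitor of blood vessel growth and an activator of latent TGF-beta. Its signal was 148, 99.7, 115.1 and 132 in the control eyes and 95.7, 51.9, 48.0, 65.1 and 61.8 in the *RBS* lesions. *RBS* lesion 1 came close to the lowest control eye, and the other lesions lay lower. The difference was -0.96 (SE 0.21, -1.43 to -0.49, adjusted p = 0.00404). In the Shh-MBs *Thbs1* was 2.51, 4.29 and 3.18, a few counts above the floor. The difference of *RBS* lesions from Shh-MBs was 3.90 (SE 0.24, 3.34 to 4.46, adjusted p = 5.87e-06).

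*Thbs4* encodes thrombospondin 4, a protein of tendon, muscle and the nervous system. Its signal was 435, 178, 313 and 351 in the control eyes. In the *RBS* lesions it was 80.9, 44.6, 53.3, 49.5 and 28.8, and in the Shh-MBs 9.22, 14.6 and 6.57. The 3 groups were separate from one another, in the order control eye, *RBS* lesion and Shh-MB. The difference between *RBS* lesions and control eyes was -2.61 (SE 0.32, -3.35 to -1.88, adjusted p = 0.000183). *RBS* lesions lay above Shh-MBs by 2.22 (SE 0.34, 1.43 to 3.02, adjusted p = 0.000652), a call that was lost under quantile normalization (0.82, adjusted p = 0.12). The ratio of the *Thbs4* signal to the *Thbs1* signal, each within 1 sample, was 1.78 to 2.93 in control eyes and 0.467 to 1.11 in *RBS* lesions, without overlap. In Shh-MBs, where *Thbs1* was a few counts above the floor, it was 2.07 to 3.68, which overlaps the control eyes.

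*Comp*, a thrombospondin of cartilage, was at the floor in 2 of 4 control eyes, 5 of 5 *RBS* lesions and 2 of 3 Shh-MBs. Its highest signal was 2.47, in control eye 3. *Chad* encodes a leucine-rich repeat protein of cartilage that binds integrins. Its signal was 1.17, 2.39, 12.03 and 11.5 in the control eyes, 1.64, 5.78, 3.90, 7.28 and 7.80 in the *RBS* lesions and 6.99, 1 and 1 in the Shh-MBs. At these few counts no difference between *RBS* lesions and control eyes was detectable for *Comp* (-0.15, -0.54 to 0.25, adjusted p = 0.526) or *Chad* (-0.03, -1.41 to 1.35, adjusted p = 0.969). Of the cartilage and bone markers listed for a check of cell types, 3 of 6 were on the panel (*Col2a1*, *Col11a1* and *Sox9*). Their summed signal was 1579 to 2279 in control eyes, 1341 to 1659 in *RBS* lesions and, in Shh-MBs, 579 to 608. The 3 did not move together in *RBS* lesions against control eyes, since *Sox9* was higher (0.52, adjusted p = 0.00562), *Col11a1* was lower (-1.30, adjusted p = 0.00123) and *Col2a1* was not called (-0.27, adjusted p = 0.0528).

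Osteopontin is a phosphorylated RGD protein secreted by bone cells, macrophages and several epithelia, and it acts on integrins and CD44. The signal of *Spp1* was 219.9, 219.3, 156 and 368 in the control eyes. In the *RBS* lesions it was 514, 469, 496, 641 and 857, and in the Shh-MBs 122, 208 and 209. All *RBS* lesions lay above all other samples, and control eyes and Shh-MBs overlapped. *RBS* lesions exceeded control eyes by 1.33 (SE 0.26, 0.74 to 1.93, adjusted p = 0.00249) and Shh-MBs by 1.73 (SE 0.26, 1.12 to 2.33, adjusted p = 0.000581). Shh-MBs and control eyes did not differ beyond their spread (-0.39, -1.18 to 0.40, adjusted p = 0.4).

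Macrophages are one known source of osteopontin, and 2 of the 5 myeloid markers measured were called as higher in *RBS* lesions, where 33% of all genes were. Of the listed myeloid markers, 5 of 10 were on the panel (*Csf1r*, *Cd14*, *Tlr2*, *Tlr4* and *Csf3r*). Their summed signal was 103 to 152 in control eyes, 196 to 263 in *RBS* lesions and, in Shh-MBs, 128 to 241. *Csf1r*, the receptor that maintains macrophages, had a signal of 78.9 ± 15.3 (SD, n = 4) in control eyes and 167 ± 20.1 (SD, n = 5) in *RBS* lesions. It was called as higher in *RBS* lesions (1.08, SE 0.14, limma adjusted p = 0.000271), as was *Cd14* (1.63, SE 0.47, limma adjusted p = 0.018), and the other 3 were not called. *Cd14* was near the floor, at mean signals of 12.6 and 2.95, and lost its call in 4 of 21 other settings, among them quantile normalization (1.35, adjusted p = 0.0546) and the removal of control eye 2 (1.33, adjusted p = 0.0514). The part of myeloid cells in the rise of *Spp1* was not tested.

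*Ibsp* encodes bone sialoprotein, a mineral-binding RGD protein of osteoblasts, and in the mouse genome it is a neighbour of *Spp1* on chromosome 5, with 1 protein-coding gene (*Mepe*) between them. Its signal was 13.4, 16.6, 1.06 and 452.1 in the control eyes. In the *RBS* lesions it was 599.5, 91.6, 170.5, 29.0 and 452.3. Control eye 3 was thus at the floor, control eye 4 was as high as *RBS* lesion 5, and the groups overlapped. The difference of 2.92 was not called (SE 1.48, -0.44 to 6.28, adjusted p = 0.136). Without control eye 4 it was 4.37 and called (adjusted p = 0.0114), so this 1 eye decides the call. Without control eye 3 it was 1.78 and not called (adjusted p = 0.339), and the other removals of 1 sample gave values between these. In the Shh-MBs *Ibsp* was 1.39, 4.29 and 3.18, below every *RBS* lesion. That difference was 5.48 (SE 0.95, 3.29 to 7.66, adjusted p = 0.0012).

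**Figure D2:**
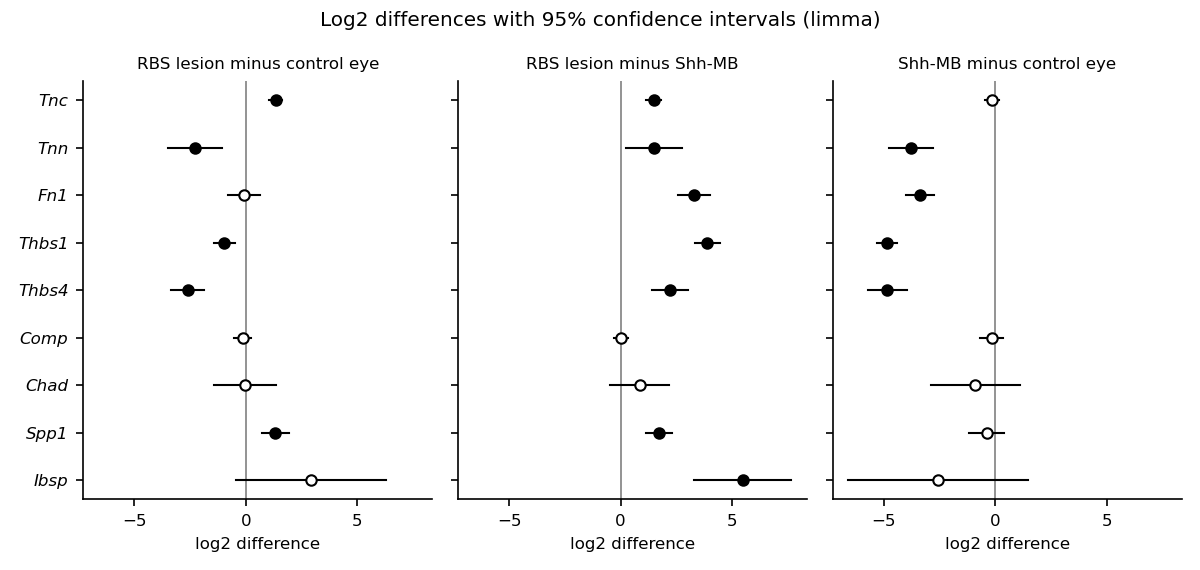
Log2 differences of the 9 genes with 95% confidence intervals from limma in the 3 comparisons, filled where called and open where not. *Tnc* and *Spp1* lie to the right of 0 in *RBS* lesions against both other groups, whereas the interval of *Ibsp* against control eyes runs from -0.44 to 6.28.

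Against Shh-MBs, 7 of the 9 genes were called as higher in *RBS* lesions and 0 as lower, while 60.8% of all genes were called, 48.1% as higher and 12.7% as lower. The balance over all genes depends on the scaling, since median centring called 181 genes as higher and 319 as lower, and quantile normalization 203 and 236. Under these scalings 6 and 5 of the 9 genes were called as higher, and 1 and 0 as lower. The 7 were *Ibsp*, *Thbs1*, *Fn1*, *Thbs4*, *Spp1*, *Tnn* and *Tnc*, with differences from 5.48 down to 1.48. None of the 7 overlapped between the groups, and 59.9% of all genes did not. The median difference was 1.73 over the 9 genes and 0.53 over all genes. For *Tnn* the difference was 1.49 (SE 0.54, 0.24 to 2.74, adjusted p = 0.0419), and the lowest lesion (2.46) barely cleared the highest tumor (2.41). Its call was lost in 14 of 20 alternatives, among them the 3 other scalings and each removal of 1 sample other than *RBS* lesions 4 and 5. Over all removals of 1 sample the adjusted p ran from 0.0199 to 0.125. *Chad* was not called (0.86, -0.46 to 2.18, adjusted p = 0.221), but was without Shh-MB 1 (1.53, adjusted p = 0.0231). *Comp* gave 0.02 (-0.28 to 0.33, adjusted p = 0.886), and turned to -0.82 (adjusted p = 0.000528) with median centring of the samples. That setting moved the median difference of all genes from 0.53 to -0.32, and *Comp* was at the floor in 5 of 5 *RBS* lesions and 2 of 3 Shh-MBs.

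Between Shh-MBs and control eyes, 4 of the 9 genes were lower in Shh-MBs and 0 were higher, while 41% of all genes were called, 31.4% as lower and 9.61% as higher. The balance over all genes turns with the scaling here too, to 311 higher and 139 lower with median centring and 223 and 149 with quantile normalization. The same number of the 9 genes, 4, was lower under both, and median centring called *Tnc* as higher. The groups did not overlap for these 4 or for 48.2% of all genes. *Thbs1* differed by -4.86 (SE 0.19), *Thbs4* by -4.84 (SE 0.37), *Tnn* by -3.78 (SE 0.42) and *Fn1* by -3.37 (SE 0.26), with adjusted p between 7.09e-06 and 0.000447. *Ibsp* was not called (-2.56, -6.59 to 1.47, adjusted p = 0.282). The median difference was -2.56 over the 9 genes and -0.22 over all genes. This comparison shares its samples with both others, so the 3 sets of values are not independent of one another.

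With exact permutation of the samples, two-sided, the smallest p possible was 0.00794 for *RBS* lesions against control eyes. *Tnc*, *Spp1* and *Thbs4* reached this exact p, *Thbs1* and *Tnn* gave p = 0.0159, and *Ibsp* gave p = 0.119. Against Shh-MBs the smallest exact p was 0.0179, reached by 6 of the genes, and *Tnn* gave p = 0.0536. For Shh-MBs against control eyes it was 0.0286, reached by the 4 genes that limma called.

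Single eyes varied in these genes to very different degrees. The standard deviation of the log2 values of *Ibsp* was 3.22 in control eyes and 1.76 in *RBS* lesions, rank 2 of 770 genes in both, where the median gene had 0.219 and 0.217. *Tnn* had 0.73 (rank 91) and 0.99 (rank 25). *Tnc* had 0.15 (rank 523) and 0.21 (rank 392, near the median gene). *Chad* ranked 10 in control eyes with 1.32, at signals of few counts.

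After each eye was set against the mean of its group, some of the genes varied together over the 9 eyes. *Fn1* correlated with *Thbs4* at 0.81 and with *Tnn* at 0.72, and *Spp1* with *Ibsp* at 0.71. *Col1a1*, the main collagen of mesenchyme and bone, correlated with *Fn1* at 0.71, with *Ibsp* at 0.68 and with *Thbs1* at 0.67, but with *Tnc* at -0.11. These correlations describe 9 eyes that share the scaling of whole samples, and they were not tested. The *Col1a1* signal was 21672, 10638, 16040.4 and 25754 in the control eyes, and 15305, 8736, 8436, 5757 and 11237 in the *RBS* lesions. Control eye 4, highest in *Ibsp*, *Tnn*, *Fn1*, *Spp1* and *Tnc* among the controls, was also highest in *Col1a1*. *RBS* lesion 1, highest in *Ibsp*, *Fn1*, *Thbs1* and *Thbs4* among the lesions, was the highest lesion in *Col1a1*. The mesenchyme markers, of which 7 of 9 were on the panel (*Col1a1*, *Col1a2*, *Col3a1*, *Col5a1*, *Col5a2*, *Pdgfra* and *Pdgfrb*), summed to 25545.5 to 57829 in control eyes, 19843 to 36410 in *RBS* lesions and, in Shh-MBs, 1475 to 2099. *Col1a1* and *Col3a1* make up most of this sum in the eyes, but not in Shh-MBs, where *Pdgfra* (mean signal 982) is the largest part of the sum. In *RBS* lesions against control eyes 2 of the 7 were lower, beside 18.2% of all genes, 0 were higher, and *Col3a1* (0.0083, adjusted p = 0.9753) and *Pdgfra* (0.53, adjusted p = 0.0565) were among those not called. In Shh-MBs against control eyes 6 were lower, beside 31.4% of all genes, while *Pdgfra* was higher (1.53, adjusted p = 0.00505). Control eye 4 and *RBS* lesion 1 had the highest sums of their groups. Control eye 4 was also the highest control in surface epithelium and myeloid markers and the lowest in neuron markers and *Fgf15*. The part of mesenchyme in the differences of these genes was not tested.

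**Figure D3:**
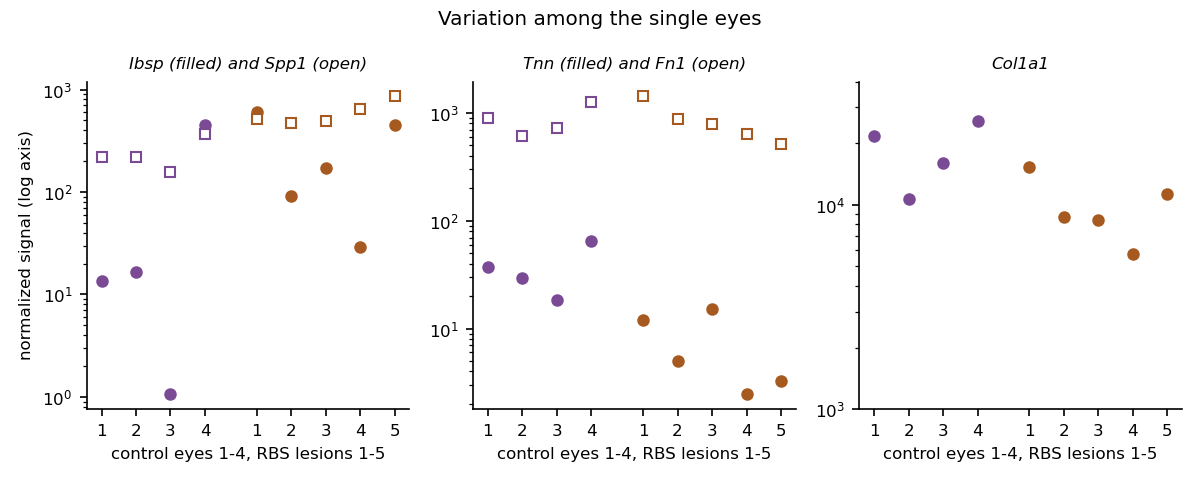
Normalized signal (log axes) in each single eye, control eyes 1 to 4 at left and *RBS* lesions 1 to 5 at right of each panel, for *Ibsp* and *Spp1*, for *Tnn* and *Fn1*, and for *Col1a1*. Control eye 4 is the highest control in all 5 genes, and *Ibsp* ranges from 1.06 to 599.5 over the eyes.

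Markers of other cell types differed between the groups too, and their part in these results was not tested. *Fgf15*, the 1 of 5 retinal progenitor markers on the panel, was 835 to 1094 in control eyes, 74.6 to 152 in *RBS* lesions and, in Shh-MBs, 1 to 4.87. The endothelial markers *Kdr* and *Flt1* (2 of 6) summed to 1683 to 2163, 622 to 858 and 93.8 to 196 in the same order. *Kdr* makes up most of this sum and was lower in *RBS* lesions against control eyes (-1.49, adjusted p = 4.32e-05), whereas *Flt1* was not called (0.12, adjusted p = 0.771). Neuron markers (*Mapt* and *Grin2b*, 2 of 5) summed to 541 to 696, 2051 to 2759 and 289 to 425. *Mapt* makes up most of this sum and was lower in Shh-MBs against control eyes (-1.02, adjusted p = 0.00317), where *Grin2b* was higher (0.93, adjusted p = 0.0388). Surface epithelium markers (7 of 9) summed to 233 to 453, 496 to 876 and 9.82 to 21.0. *Calml3* is the largest part of this sum in the eyes, with means of 189 in control eyes and 358 in *RBS* lesions. In *RBS* lesions against control eyes 4 of the 7 were higher, beside 33% of all genes, and 0 were lower. *Sfn*, which was near the floor, *Lama3* and *Lamb3* were not called. Granule cell precursor markers (*Gli1*, *Mycn* and *Ccnd2*, 3 of 5) summed to 2018 to 2210, 1638 to 1782 and 6080.0 to 7507, and were highest in Shh-MBs. In *RBS* lesions against control eyes *Gli1* (-0.67, adjusted p = 0.00559) and *Mycn* (-0.87, adjusted p = 0.00025) were lower, beside 18.2% of all genes. *Ccnd2* was not called there (0.36, adjusted p = 0.106). No marker of skeletal muscle (0 of 4) or glia (0 of 3) from the lists was on the panel.

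The partners of these proteins were described from lists of other matrix genes, with *RBS* lesions first set against control eyes. Among the integrin subunits and other receptors of the 9 proteins, 7 of 16 were on the panel. Of these 7, 2 were higher in *RBS* lesions, 0 were lower and 5 were not called, with a median difference of 0.18. The share called as higher was near the 33% of all genes, and with quantile normalization 1 was higher and 1 lower. *Itgb8*, whose integrin binds latent TGF-beta, was 0.98 higher (SE 0.11, adjusted p = 0.000121) and its groups did not overlap. *Itga8*, a subunit of a receptor for fibronectin, osteopontin and tenascin C, was 1.25 higher (SE 0.41, adjusted p = 0.0297), with overlapping groups and a call that was lost in 10 of 22 other settings. Against Shh-MBs 4 of the 7 were higher and 0 lower (median 1.41), beside 48.1% of all genes called as higher, and with median centring 4 were higher and 3 lower. In Shh-MBs against control eyes 1 was lower (median -0.43), where 31.4% of all genes were.

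All 10 listed fibrillar collagen genes were on the panel, and 0 were higher, 4 lower and 6 not called in *RBS* lesions against control eyes, with a median of -0.60, while 18.2% of all genes were called as lower. The count of lower genes was 7 with median centring and 6 under each of the other 2 scalings. *Col24a1* fell by 1.75 (SE 0.29, adjusted p = 0.000979) and *Col11a1*, a collagen of cartilage, fell by 1.30 (SE 0.23, adjusted p = 0.00123). *Col1a1* fell by 0.90 (SE 0.33, adjusted p = 0.0438), with overlapping groups and a call lost in 14 of 22 other settings. Against Shh-MBs 9 of 10 were higher (median 3.83), and 9 of 10 were lower in Shh-MBs than in control eyes (median -4.79). The shares over all genes were 48.1% and 31.4%.

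Of the basement membrane genes 10 of 18 were on the panel, of which 1 was higher and 3 were lower in *RBS* lesions when set against control eyes (median 0.30). Of all genes 33% were higher and 18.2% lower. Under each of the 3 other scalings 0 of the list were higher and 4 lower. The type IV collagen chains *Col4a3* and *Col4a4* fell by 4.38 (SE 0.56, adjusted p = 0.000225) and 2.93 (SE 0.41, adjusted p = 0.000361). *Col4a4* had a median signal of 1.64 in *RBS* lesions, with 2 of 5 at the floor. Its call was lost when values under 20 were set to 20 (-0.24, adjusted p = 0.425). Against Shh-MBs 6 were higher and 1 lower (median 2.27), and Shh-MBs against control eyes had 1 higher and 7 lower (median -2.74). Over all genes 48.1% were higher and 12.7% lower in the former comparison, and 9.61% and 31.4% in the latter.

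Of the TGF-beta axis 9 of 10 were on the panel, with 0 higher and 2 lower in *RBS* lesions against control eyes (median -0.08), near the 18.2% of all genes called as lower. The count of lower genes was 4 with median centring, 6 with quantile normalization and 3 with the total without the top genes. The ligands *Tgfb2* and *Tgfb3* fell by 0.61 (SE 0.12, adjusted p = 0.00226) and 0.38 (SE 0.13, adjusted p = 0.0326), the latter call being lost in 9 of 22 other settings. Against Shh-MBs 6 were higher and 1 lower (median 1.19), and Shh-MBs against control eyes had 1 higher and 6 lower (median -1.03), beside the same shares over all genes. Of 9 other matrix glycoproteins listed, 2 were on the panel. Tenascin R (*Tnr*), the tenascin of the nervous system, was 0.95 higher in *RBS* lesions against control eyes (SE 0.14, adjusted p = 0.000522), at mean signals of 12.5 and 5.97. Reelin (*Reln*) fell by 0.57 (SE 0.16, adjusted p = 0.0163). Against Shh-MBs 0 of these 2 were higher and 1 lower (median -0.51), beside 48.1% and 12.7% of all genes. Shh-MBs against control eyes had 1 higher and 0 lower (median 0.71), beside 9.61% and 31.4% of all genes.

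**Figure D4:**
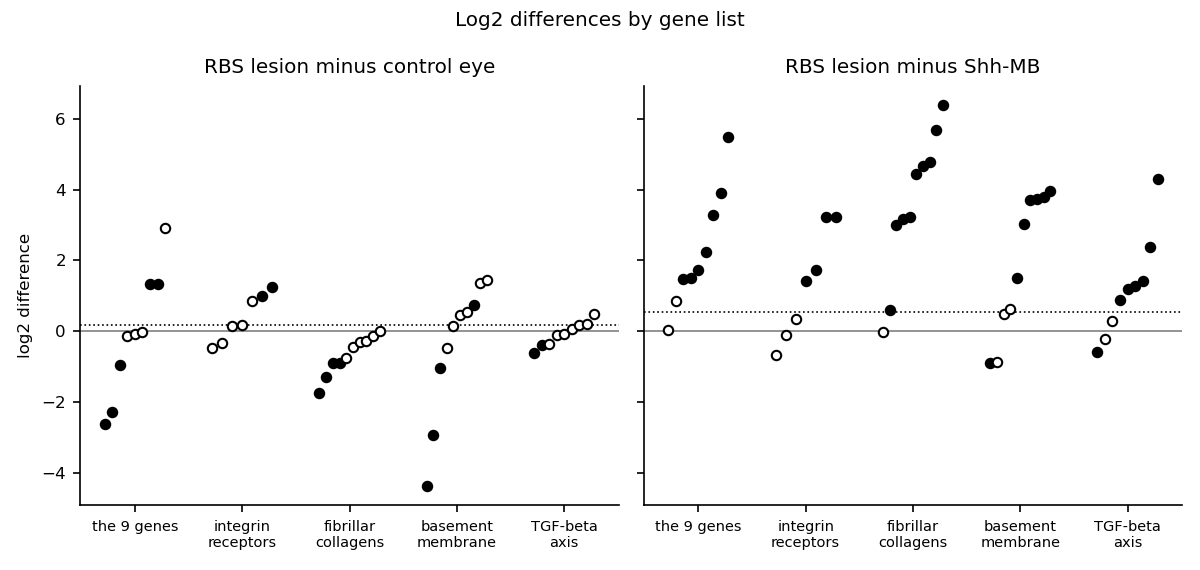
Log2 differences of single genes in the 9 matricellular and adhesive glycoproteins and in 4 lists of matrix, receptor and TGF-beta genes, filled where called, with a dotted line at the median of all 770 genes. Against control eyes the 9 genes spread from -2.61 to 2.92, whereas the fibrillar collagens lie between -1.75 and 0.0083.

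The genes most like each of the 9 in pattern over the 12 samples were found by Pearson correlation of log2 values, among genes with a median of at least 20 in some group. For *Tnc* they were *Smad1* (0.98), *Gnaq* (0.96) and *Sos1* (0.96). For *Tnn* they were *Gas1* (0.93), *Gngt1* (0.93) and *Myb* (0.91). Among the genes most like *Fn1* were *Wnt11* (0.99) and *Gpc4* (0.98), and *Thbs1* was most like *Col5a1* (0.99), *Col1a1* (0.99) and *Tgfb3* (0.99). *Thbs4* was most like *Dusp6* (0.96), *Col11a1* (0.95) and *Nupr1* (0.95). *Spp1* was most like *Hdac3* (0.98), *Amer1* (0.94) and *Prkar2a* (0.94), and *Ibsp* most like *Gata2* (0.89), *Foxl2* (0.88) and *Lamb3* (0.88). The 12 samples fall into 3 separate groups, so these values largely describe the differences between group means. After subtraction of the group means, *Hdac3* with *Spp1* gave 0.88, *Wnt11* with *Fn1* 0.86 and *Gata2* with *Ibsp* 0.79, whereas for *Tnc* the values were 0.71 with *Smad1*, 0.03 with *Gnaq* and 0.36 with *Sos1*.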

How the data were processed

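RNA of 12 fresh frozen samples (5 *RBS* lesions, 4 control eyes, 3 Shh-MBs) was measured on the nCounter mouse PanCancer pathways panel of 770 genes. The authors normalized the counts with nSolver and its Advanced Analysis module, and the deposited values are a background-subtracted, normalized signal on a linear scale. The background setting and the reference genes are not given in the sources used here. Whole counts could not be recovered from these values. The worth of 1 count was taken from the spacing of low values in each sample, and the total signal divided by it was used as the depth.

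Groups were taken from the sample labels, and sex is not among them. P-values measure the spread between animals of 1 group. Values were analysed as log2(signal + 1) without a filter or further scaling. Each pair of groups was fitted on its own with limma (version 3.58.1, in R version 4.3.3; two-sided tests, Benjamini-Hochberg over 770 genes, threshold 0.05). Of the gene symbols, 760 matched the RefSeq table directly and 10 by an older name. Promoter windows were matched for 6 of the 9 genes by symbol, those of *Tnc*, *Tnn*, *Thbs4*, *Spp1*, *Ibsp* and *Chad*. Summaries and plots were made in Python 3.11.15 with matplotlib 3.10.9.

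The genes named are the 9 glycoproteins, the 3 genes most like each of the 7 with a median of at least 20 in some group, *Col1a1*, and the 2 largest rises and falls called in each list against control eyes. Markers of cell types were named in addition, and those given with their own tests (*Csf1r*, *Cd14*, *Kdr*, *Flt1*, *Mapt*, *Grin2b*, *Sox9*, *Col2a1*, *Col3a1*, *Pdgfra*, *Gli1*, *Mycn* and *Ccnd2*) were singled out after their values were seen. Of the genes this rule selects, 2 are not reported here. The 9 genes and all lists were chosen with earlier results of these data known. Alternatives were median centring, quantile normalization, scaling of samples to their total after removal of the 3 top genes, a pseudocount of 5, setting values under 20 to 20, leaving out genes with a low mean, 1 fit of all 12 samples, trend and robust settings, a block for the replicate number, the methods' t-test adjusted by step-down Bonferroni or by Benjamini-Hochberg, permutation with exact p-values and leaving out each sample. The methods' t-test was run as a Welch test with p from the t distribution, without the permutations that the methods name. For this test the methods name an adjusted Bonferroni correction, not Benjamini-Hochberg. A term for samples with *Uty* above 100 was added after the data had been seen. The tests were tried on simulated data with known changes.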

Additional observations from a re-analysis of the deposited data

Results flagged for a closer look

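*Tnc* in *RBS* lesion 4 had a signal of 726, and on the log2 scale its gap to the next lesion was 0.842 of the range of the 5 lesions, which is more than Dixon's test allows. Without this lesion *RBS* lesions exceeded control eyes by 1.25 and the call remained. *Comp* in control eye 3 had a signal of 2.47, and on the same scale its gap to the next control eye was 0.86 of the range of the 4 eyes, at a level of few counts. Of 18 groups of values examined in this way 2 stood out, where chance gives about 1 in 20.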

How the results depend on the processing

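Of the 9 genes, 5 were called in *RBS* lesions against control eyes, 7 against Shh-MBs and 4 in Shh-MBs against control eyes. With the methods' t-test and step-down Bonferroni adjustment these numbers fell to 1, 3 and 1. Exact permutation called 0 of the 9 genes and 0 of all genes in Shh-MBs against control eyes. The smallest exact p of 0.0286 becomes 0.0703 after adjustment there, while 4 of the 9 had an unadjusted exact p below 0.05 and limma called 4. Leaving out 1 sample gave 5 to 6, 6 to 7 and 4 to 4 genes, beside 350 to 392, 423 to 478 and 250 to 313 of all genes. With the replicate number as a block, 4, 7 and 4 of the 9 genes were called, beside 301, 407 and 230 of all genes. *Tnn* in *RBS* lesions against control eyes lost its call there (-2.10, adjusted p = 0.0599). The labels do not say that equal numbers mark a pairing, and the deviations of same-numbered eyes correlated at -0.108, 0.157, 0.188 and -0.148, so the numbers are not taken to pair the samples. Under the block *Fn1* against control eyes was 0.073. The share of called genes that were higher was 64.5% in *RBS* lesions against control eyes (50% with median centring, 50.8% with quantile normalization, 61.6% with the total without the 3 most abundant genes). It was 79.1% in *RBS* lesions against Shh-MBs (36.2%, 46.2% and 62.5%) and 23.4% in Shh-MBs against control eyes (69.1%, 59.9% and 47.5%). The median difference of all genes moved from 0.17 to -0.0075, 0.0027 and 0.11 in the first comparison, from 0.53 to -0.32, -0.10 and 0.19 in the next and from -0.22 to 0.44, 0.17 and 0.06 in the last. Signs that turned were as follows. In *RBS* lesions against Shh-MBs, *Comp* was -0.82 with median centring, -0.13 with quantile normalization and -0.18 with the total. In Shh-MBs against control eyes, median centring gave 0.52 for *Tnc* (adjusted p = 0.0273), 0.28 for *Spp1* and 0.50 for *Comp*, quantile normalization gave 0.21 for *Tnc*, and the total gave 0.17 for *Tnc* and 0.0014 for *Comp*. In the same comparison the *Uty* term, chosen after seeing the data, gave 0.16 for *Spp1* and 0.86 for *Ibsp*, and *Comp* was called with it (-0.71, adjusted p = 0.0324). When 1 sample was left out, the differences in *RBS* lesions against control eyes ran from -0.29 to 0.11 for *Fn1*, from -0.23 to 0.035 for *Comp* and from -0.51 to 0.35 for *Chad*. *Comp* ran from -0.050 to 0.11 in *RBS* lesions against Shh-MBs and from -0.25 to 0.011 in Shh-MBs against control eyes. Median centring also called all 7 integrin receptor genes against Shh-MBs (4 higher, 3 lower), and median centring and quantile normalization called both other glycoproteins there (0 higher, 2 lower) and in Shh-MBs against control eyes (2 higher, 0 lower). The cause of these changes was not tested. *Comp*, *Chad* and, outside control eyes, *Tnn* rest on few counts.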
